A study of Mus musculus with 4 samples.

Results

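Wnt, Fgf, Bmp, TGF-beta and activin, Hedgehog and Notch proteins are the main signalling families through which epithelium and stroma instruct each other when the seminal vesicle and other urogenital glands form, and many remain in use in the adult organ. Wnt, Fgf, Bmp, TGF-beta and Hedgehog ligands are secreted and bind receptors on nearby cells, whereas Notch ligands are membrane proteins read by the neighbouring cell. Wnt signals stabilise beta-catenin, Fgf receptors are tyrosine kinases upstream of the MAP kinases, Bmp and TGF-beta receptors phosphorylate Smad proteins, Hedgehog acts through Smo and Gli factors, and cleaved Notch switches on Hes and Hey genes.

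The members were taken by gene symbol. A probe set, the group of oligonucleotides that reads a transcript on an Affymetrix array, was included when the platform annotation gave it a single symbol of these families. The pattern found 145 of 12422 probe sets, for 116 of 8251 genes. They comprised 30 Wnt, 22 Fgf, 21 Bmp, 22 TGF-beta and activin, 8 Hedgehog and 13 Notch genes, with ligands, receptors and Smads assigned to a branch by their known use. Of these genes, 5 entered by name alone, without an assigned signalling role in their family: Tgfb1i1, Jagn1, Fgfr1op2, Bmp2k and Bmp1. They form a role of their own below but stay in all counts and averages by family.

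The arrays held seminal vesicle RNA from 4 mice of one group, wild type at the Nkx3.1 locus (Nkx3.1 +/+) on the C57Bl/6J background and 15 months of age, with 1 Mu74AV2 array per animal. With 1 group there was no comparison between conditions, and the values describe the wild-type gland at this age and the spread between its 4 mice. Each array came from a different animal by its label, and litter, cage and hybridisation batch are not stated there, so p-values measure the spread between these samples, which may be partly technical. All values below are log2 expression values made by RMA, which are levels of one probe set and are not comparable between probe sets. Whole-organ RNA was used, so fewer cells of a type and less RNA per cell cannot be told apart.

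The labelled tissue was checked by its markers. Of 7 measured seminal vesicle secretion genes, 6 were above the background range, as were 8 of 11 luminal epithelial, 10 of 11 smooth muscle, 5 of 12 fibroblast, 2 of 9 endothelial, 3 of 9 macrophage, 2 of 6 B and plasma cell, 2 of 7 nerve and 1 of 6 basal epithelial markers. Of 5 prostate markers, 3 were above it on all 4 arrays. Mouse 1 stood apart on another of them, Pbsn, which encodes the prostate secretory protein probasin, at 6.57 against 3.02, 3.18 and 3.47 in mice 2 to 4 (adjusted p = 0.0015, limma's variance test). Mouse 4 was lowest for Ighm, Igha and Jchain of the B and plasma cell list. Ighm, the immunoglobulin mu chain gene, had 6.57 there against 8.51, 9.14 and 8.67 in mice 1 to 3 (adjusted p = 0.00733, limma). The other markers of the list, Cd79a, Cd79b and Ms4a1, were not lowest in mouse 4, and Cd79a was highest there. Of the probe sets of this list, 4 of 24 were called variable. On each array, 103 genes that belong to other organs (132 probe sets) set the background range, whose upper limit was their 90th percentile and fell between 6.02 and 6.22. A gene was counted as above the range when one of its probe sets exceeded the limit on all 4 arrays. By construction the limit lets some genes through: 12 of the 103 other-organ genes (11.7%) were themselves above it, so passing it does not by itself establish expression, and staying under it does not show that a gene is silent. Pearson's r between arrays, taken across probe sets that are not independent, was 0.992 to 0.994.

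Promoters of 6 members above the background range are shown, 1 for each family. They are those of the Wnt receptor gene Fzd4, the Fgf receptor gene Fgfr2 and the Bmp transducer gene Smad1. The others are those of the activin receptor gene Acvr2b, the Hedgehog ligand gene Dhh and the Notch receptor gene Notch2. Each runs from 250 bases before to 50 bases after the transcription start, 5′ to 3′ on the gene's strand, from RefSeq on GRCm38.p6. Capitals mark the GC box GGGCGG on either strand, whose matches may overlap, as they do in Fzd4.
Fzd4, chr7:89404116-89404415, plus strand: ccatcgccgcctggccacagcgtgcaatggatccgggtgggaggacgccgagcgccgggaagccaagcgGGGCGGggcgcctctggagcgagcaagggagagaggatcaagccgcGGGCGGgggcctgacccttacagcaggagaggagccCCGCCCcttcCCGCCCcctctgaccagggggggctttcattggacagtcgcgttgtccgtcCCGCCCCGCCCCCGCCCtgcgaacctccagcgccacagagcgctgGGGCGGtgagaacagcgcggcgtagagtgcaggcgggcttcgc
Fgfr2, chr7:130266759-130267058, minus strand: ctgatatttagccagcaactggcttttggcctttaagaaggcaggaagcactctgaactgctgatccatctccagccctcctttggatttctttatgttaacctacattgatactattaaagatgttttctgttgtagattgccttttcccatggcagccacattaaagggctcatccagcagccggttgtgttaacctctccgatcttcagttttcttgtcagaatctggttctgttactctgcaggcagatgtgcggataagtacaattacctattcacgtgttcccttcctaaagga
Smad1, chr8:79399379-79399678, minus strand: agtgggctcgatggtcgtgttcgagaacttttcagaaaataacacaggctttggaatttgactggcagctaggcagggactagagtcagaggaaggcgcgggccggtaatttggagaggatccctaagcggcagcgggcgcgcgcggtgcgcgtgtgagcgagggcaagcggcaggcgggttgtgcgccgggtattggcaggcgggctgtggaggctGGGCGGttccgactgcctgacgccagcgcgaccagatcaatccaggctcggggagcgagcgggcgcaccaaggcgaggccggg
Acvr2b, chr9:119401928-119402227, plus strand: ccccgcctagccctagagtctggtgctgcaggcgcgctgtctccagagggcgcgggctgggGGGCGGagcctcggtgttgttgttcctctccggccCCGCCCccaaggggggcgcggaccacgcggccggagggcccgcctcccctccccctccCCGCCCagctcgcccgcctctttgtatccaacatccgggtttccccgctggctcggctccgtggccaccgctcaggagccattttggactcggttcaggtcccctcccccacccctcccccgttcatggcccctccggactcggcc
Dhh, chr15:98898491-98898790, minus strand: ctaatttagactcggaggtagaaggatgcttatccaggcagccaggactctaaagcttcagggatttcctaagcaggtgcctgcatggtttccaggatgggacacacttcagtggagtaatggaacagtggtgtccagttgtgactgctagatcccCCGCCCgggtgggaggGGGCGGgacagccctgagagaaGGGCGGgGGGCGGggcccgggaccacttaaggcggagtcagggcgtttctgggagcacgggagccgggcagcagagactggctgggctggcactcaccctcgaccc
Notch2, chr3:98013288-98013587, plus strand: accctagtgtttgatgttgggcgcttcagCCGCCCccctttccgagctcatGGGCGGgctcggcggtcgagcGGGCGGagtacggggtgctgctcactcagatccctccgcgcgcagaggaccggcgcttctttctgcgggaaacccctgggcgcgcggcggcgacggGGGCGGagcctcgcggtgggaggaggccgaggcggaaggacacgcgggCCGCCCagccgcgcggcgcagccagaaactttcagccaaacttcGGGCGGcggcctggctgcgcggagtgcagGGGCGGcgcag

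The GC box occurred 8 times in the Fzd4 window, 7 times in Notch2, 4 times in Dhh, 3 times in Acvr2b and 1 time in Smad1, and it was not found in the Fgfr2 window. Of all 32851 promoter windows in the RefSeq table, 35.7% held at least 1 match. The Fgfr2 window also stood apart in base composition, with 43.7% G and C against 61.7% in Dhh, 65.0% in Smad1, 72.7% in Fzd4, 73.0% in Notch2 and 73.3% in Acvr2b, where the median of all windows was 52.7%. None of the 6 windows held TATAAA, which 13.6% of all windows did. The matches describe the letters only, since the arrays measure no binding at these windows.

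Most of the signalling genes stayed within the background range. Of 116 member genes 17 (14.7%) were above it on all 4 arrays, against 29.0% of all genes and the 11.7% of other-organ genes. The members' share was below that of all genes and near that of the genes taken as background, and these counts were not tested against each other. Of all 116, those above it on all 4 arrays were Fzd4, Lrp6, Fgf4, Fgfr2, Bmp7, Acvrl1, Smad1, Tgfb3, Acvr2b, Smad4, Smad7, Tgfb1i1, Dhh, Notch2, Notch4, Hes1 and Jagn1. Without mouse 1, 18 member genes (15.5%) were above the range in place of 17 (Notch1 added), against 29.3% of all genes. Without mouse 4 the count was 19 (16.4%, Lrp5 and Wnt1 added), against 30.5% of all genes. By family the counts were 2 of 30 for Wnt, 2 of 22 for Fgf and 3 of 21 for Bmp. They were 5 of 22 for TGF-beta and activin, 1 of 8 for Hedgehog and 4 of 13 for Notch. The genes above the range include the name matches Tgfb1i1, under TGF-beta and activin, and Jagn1, under Notch. The count depended on the limit, with 50 members above when the 75th percentile was the limit (54.9% of all genes), 49 above with each array's median (55.4% of all genes) and 9 with the 95th percentile (18.3% of all genes). At the 95th percentile, Fzd4, Fgfr2, Smad1, Smad4, Tgfb3, Tgfb1i1, Hes1, Notch2 and Notch4 were still above.

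The roles differed in their counts, and no test was made between roles. Of 54 ligand genes 4 were above, of 31 receptor genes 7, of 7 Smad genes 3 and of 6 Hes or Hey genes 1. The 6 secreted Wnt antagonists, the 4 intracellular Fgf homologues and the 3 Gli factors had 0 above.

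**Figure D1:**
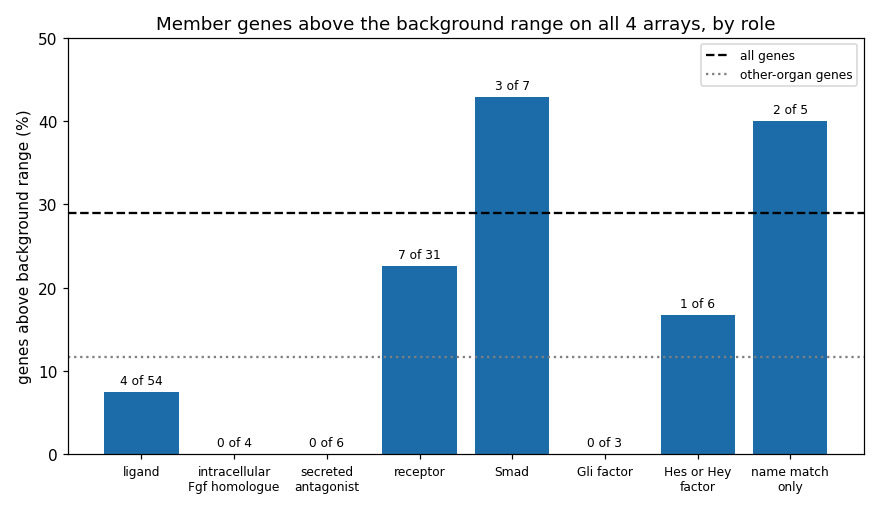
Percent of member genes above the background range on all 4 arrays, by role (bars, with counts above them), beside the percent for all genes (29.0%, dashed line) and for other-organ genes (11.7%, dotted line). Ligands lie under the dotted line with 4 of 54 genes, receptors between the lines with 7 of 31, and Smads over the dashed line with 3 of 7.

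Wnt ligands were not above the range in any of 14 measured genes. These secreted lipid-modified glycoproteins had 4-mouse means of their brightest probe sets from 3.14 (Wnt11) to 6.16 (Wnt1). Wnt1 lay at the limit, with 6.25, 6.06, 6.21 and 6.13 in mice 1 to 4, and exceeded it in every mouse but mouse 4. Wnt4, which acts in the development of the female genital tract and the kidney, averaged 5.40 ± 0.15 (SD, n = 4 mice). Wnt5a, a mostly beta-catenin-independent ligand that shapes outgrowing organs, averaged 4.55 ± 0.13, Wnt7b 5.16 ± 0.05, and Wnt10b 4.01 ± 0.04 at its brightest of 3 probe sets (SD, n = 4 each). All of these lay under the limit.

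Among Wnt receptors, Fzd4 and Lrp6 were above the range. Fzd4, the frizzled receptor also bound by the vascular ligand norrin, had 7.03, 7.21, 7.24 and 7.33 in mice 1 to 4 on one probe set. The lowest value was that of mouse 1, and all lay above the limit. The other probe sets of Fzd4 averaged 3.26 ± 0.10 and 2.47 ± 0.06 (SD, n = 4), far under the limit. Lrp6, the co-receptor that frizzleds need for beta-catenin signalling, had 7.002, 6.69, 6.43 and 6.46 on one probe set, with mouse 1 highest. The SD of 0.27 was the largest of any member probe set, at percentile 95.6 of all probe sets. The other Lrp6 probe set had 3.37, 3.52, 3.26 and 3.42 and did not place mouse 1 highest.

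The related co-receptor Lrp5 sat at the limit, with 6.22, 6.09, 6.44 and 6.13, and failed it in mouse 4 alone. The other frizzled genes stayed under it, from Fzd6 at 4.31 ± 0.18 and Fzd1 at 4.36 ± 0.15 to Fzd2 at 5.72 ± 0.20, Fzd3 at 5.76 ± 0.10 and Fzd8 at 5.85 ± 0.12 (SD, n = 4 each). Secreted antagonists, which trap Wnt ligands (Sfrp) or block Lrp co-receptors (Dkk1, Dkk2), were also under it. Sfrp2 came nearest, at 6.00, 5.84, 5.99 and 5.87, while Dkk1 had 2.995 ± 0.031 and Sfrp1 4.20 ± 0.06 (SD, n = 4 each).

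Of 32 further measured Wnt components, which include signal transducers, other receptors, secreted proteins and target genes, 13 (40.6%) were above the range, against 29.0% of all genes. No test set these shares against each other. The effector beta-catenin gene Ctnnb1, which also serves cell adhesion, had 7.95, 8.13, 7.88 and 7.77. The kinase gene Gsk3a had 8.81, 8.87, 8.72 and 8.81, and Ccnd1, the cyclin D1 gene and a known beta-catenin target, had 8.53, 8.62, 8.91 and 8.16. Ccnd1 thus spanned more between mice 3 and 4 than the kinase did among all 4. The corepressor gene Tle5 had 8.24, 8.17, 8.12 and 8.29, and the nuclear partners of beta-catenin Tcf7l2 (6.85 ± 0.15) and Lef1 (7.01 ± 0.10) were also above the limit. Axin2, the usual feedback target of the pathway, averaged 4.88 ± 0.12 and was not (SD, n = 4 each).

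In the Fgf family a single ligand and a single receptor were above the range. Fgfr2, the epithelial receptor through which stromal Fgf7 and Fgf10 act on urogenital buds, had 6.90, 6.81, 7.004 and 6.86 in mice 1 to 4. The 4 mice lay within 0.19 log2 units of each other. Its 2 other probe sets averaged 5.57 ± 0.11 and 2.25 ± 0.10 (SD, n = 4 each), under the limit. Fgf10 itself, required for seminal vesicle and prostate budding, averaged 4.42 ± 0.09 and Fgf7 3.37 ± 0.15, both under the limit in every mouse (SD, n = 4 each).

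Fgf4, best known from the early embryo and limb bud, had 6.52, 6.39, 6.53 and 6.49, above the limit on all arrays by its only probe set but not at the 95th percentile. Fgf1, an acidic Fgf without a classical signal peptide, had 5.92, 6.46, 6.07 and 6.12, and passed in mouse 2 alone. Mouse 2 thus stood above the others. The remaining secreted Fgf genes ranged from 2.70 (Fgf6) to 4.80 (Fgf18). Fgf3 had the second largest SD of any member at 0.26, with 4.40, 4.17, 4.74 and 4.20, all of them under the limit.

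Fgfr1, the main mesenchymal Fgf receptor, averaged 5.02 ± 0.10 and Fgfr4 4.14 ± 0.10 (SD, n = 4 each). Fgfr3, known from cartilage and epithelia, had 5.20, 5.14, 5.43 and 5.26 on one probe set and 1.94, 1.98, 2.23 and 2.08 on the other. Mouse 3 was highest on both Fgfr3 probe sets. None of these receptors was above the range. Fgf11 to Fgf14 encode intracellular proteins that bind sodium channels and not Fgf receptors, and their means lay between 2.57 (Fgf12) and 5.65 (Fgf11). Of 15 further Fgf components, 4 (26.7%) were above the range. The adaptor gene Grb2 had 6.98, 6.81, 6.99 and 6.96, the Fgf-responsive transcription factor gene Etv4 6.62, 6.55, 6.74 and 6.78, and Glg1, a Golgi Fgf-binding protein gene, 6.50, 6.65, 6.66 and 6.71. Dusp6, the MAP kinase phosphatase that Fgf signals induce, had 4.71 ± 0.19 (SD, n = 4) and was not above it.

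**Figure D2:**
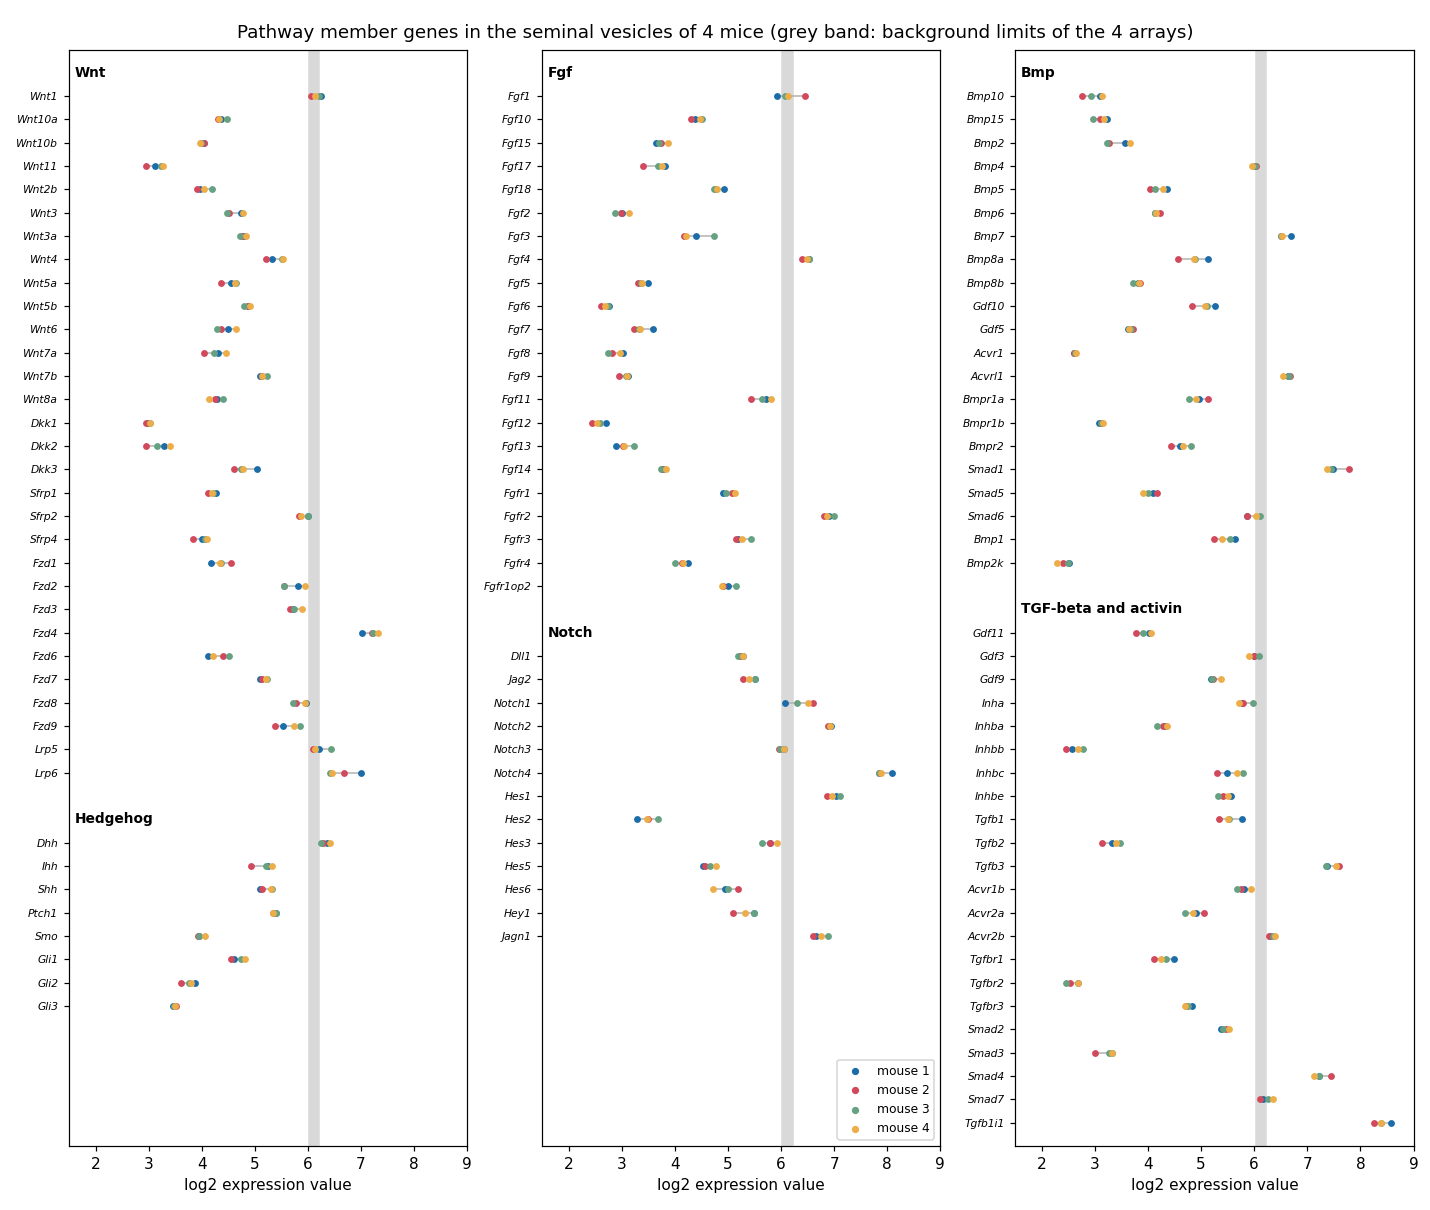
Log2 expression values of the brightest probe set of each of the 116 member genes in mice 1 to 4 (coloured points), ordered by role within each family, with the range of the 4 background limits (6.02 to 6.22) as a grey band. Most genes lie left of the band, and Tgfb1i1, Notch4, Smad1, Tgfb3, Smad4 and Fzd4 lie clear of it on the right in every mouse.

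Among Bmp ligands, Bmp7 was above the range. Bmp7, which is made by urogenital epithelium and restrains prostate branching in the mouse, had 6.68, 6.51, 6.51 and 6.52 in mice 1 to 4. Mouse 1 was highest, and the other 3 lay within 0.01 log2 units. Bmp4, a stromal inhibitor of duct budding, had 6.01, 6.04, 6.01 and 5.96 on one probe set, which passed the limit in mouse 2 alone, and 2.52, 2.66, 2.21 and 2.70 on the other. The SD of 0.03 of the brighter Bmp4 probe set was at percentile 2.43 of all probe sets, and that of the dimmer one, at 0.22, was at percentile 91.7.

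The other Bmp-branch ligands lay under the limit, from Bmp10 (2.98 ± 0.17) to Gdf10 (5.07 ± 0.18). Bmp2, a ligand known from bone and heart, had SDs among the 10 largest of the members on 2 of its 3 probe sets, at 3.56, 3.26, 3.23 and 3.67 on one and 2.25, 2.79, 2.35 and 2.56 on the other. These probe sets ordered the mice differently, with mouse 4 highest on one and mouse 2 on the other. Bmp8a, a ligand known from germ cells, had 5.13, 4.57, 4.88 and 4.86.

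Of the Bmp-branch receptors only Acvrl1 was above the range. Acvrl1 encodes a type I receptor found mainly on endothelium and had 6.63, 6.67, 6.66 and 6.54 on one of 3 probe sets, while its others averaged 5.52 ± 0.11 and 4.80 ± 0.10 (SD, n = 4 each). The type I receptor genes Bmpr1a (4.94 ± 0.15), Bmpr1b (3.11 ± 0.03) and Acvr1 (2.61 ± 0.02) and the type II receptor gene Bmpr2 (4.63 ± 0.16) were under the limit (SD, n = 4 each). Beside the Acvrl1 values, the endothelial genes Pecam1 and Eng were above the range, and the other 7 endothelial markers were not.

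Smad1, which carries the Bmp signal to the nucleus, was above the range, and its probe sets placed the same mice highest and lowest. One probe set had 7.48, 7.79, 7.44 and 7.37 in mice 1 to 4, and the other had 6.12, 6.59, 6.14 and 6.08. Mouse 2 was highest on both, by 0.27 and 0.36 log2 units over the 4-mouse means, and mouse 4 lowest. The dimmer probe set exceeded the limit in all mice but mouse 4. The variance test did not call either (adjusted p = 0.925 for the dimmer, limma). The probe sets share the gene's transcript and the samples, so they are no independent replicates. Smad5, a close relative of Smad1, averaged 4.05 ± 0.12, and the inhibitory Smad6 had 5.86, 5.86, 6.11 and 6.04, above the limit in mouse 3 alone.

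Of 14 further Bmp components, 6 (42.9%) were above the range. The Id genes, direct Bmp targets that encode inhibitors of basic helix-loop-helix factors, included Id2 at 8.02, 8.22, 8.32 and 8.12 and Id3 at 8.32, 7.95, 7.71 and 8.23. These 2 targets ran in different orders, Id2 being highest and Id3 lowest in mouse 3. Nbl1, a secreted Bmp antagonist gene, had 7.43, 7.47, 7.22 and 7.27. The antagonist genes Nog (5.46 ± 0.21), Chrd (5.91 ± 0.12) and Grem1 (5.11 ± 0.12) stayed under the limit (SD, n = 4 each).

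In the TGF-beta and activin branch, Tgfb3 was the only TGF-beta isoform gene with a probe set above the range. Tgfb3, one of 3 isoforms that bind the same receptors, had 7.37, 7.60, 7.35 and 7.53 on one probe set, above the limit in every mouse. Mice 2 and 4 lay above mice 1 and 3. The other Tgfb3 probe set had 4.56, 4.55, 4.55 and 4.57, with an SD of 0.0094, the smallest of any member. Tgfb1 averaged 5.53 ± 0.18 and Tgfb2 3.33 ± 0.15 (SD, n = 4 each), under the limit.

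Inhibin and activin subunit genes, whose products are gonadal and local regulators, were under the limit at 2.62 (Inhbb) to 5.81 (Inha). Inhbc, known from liver, had 5.48, 5.29, 5.79 and 5.68, an SD of 0.22. Gdf3, known from the early embryo, reached 6.10 in mouse 3, above the limit there alone, against 5.99, 6.00 and 5.91 in mice 1, 2 and 4. Its other probe set averaged 3.52 ± 0.15 (SD, n = 4).

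Acvr2b, a type II receptor for activins and related ligands, was the only receptor of this branch above the range, at 6.29, 6.28, 6.36 and 6.39, with all 4 mice close to the limit. The kinase receptor genes Tgfbr1 (4.29 ± 0.16) and Tgfbr2 (2.59 ± 0.12), the accessory receptor gene Tgfbr3 (4.75 ± 0.06), and the activin receptor genes Acvr1b (5.79 ± 0.12) and Acvr2a (4.87 ± 0.15) were not (SD, n = 4 each). Smad4, the partner that all receptor-activated Smads share, had 7.22, 7.44, 7.22 and 7.13. Mouse 2 was highest and mouse 4 lowest, as on both Smad1 probe sets. The inhibitory Smad7 had 6.17, 6.11, 6.25 and 6.36 and passed narrowly in each mouse, while the TGF-beta transducers Smad2 (5.44 ± 0.07) and Smad3 (3.23 ± 0.16) stayed under the limit (SD, n = 4 each).

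Tgfb1i1, included by its name, encodes the focal adhesion protein Hic-5, a TGF-beta-induced protein and androgen receptor coactivator abundant in smooth muscle. It had 8.57, 8.26, 8.38 and 8.39 in mice 1 to 4, mouse 1 being highest and mouse 2 lowest. The 10 smooth muscle markers above the range deviated from their own means over the mice by an average of 0.33, -0.17, -0.04 and -0.12, with the same mice at either end. The part of muscle content in the Tgfb1i1 values was not tested.

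Of 20 further components of this branch, 6 (30.0%) were above the range. Dcn, a matrix proteoglycan gene whose product binds TGF-beta, had 8.79, 8.74, 8.83 and 8.93, and is also a fibroblast marker. Ltbp4, which encodes a latent TGF-beta binding protein, had 8.55, 8.40, 8.37 and 8.45. Fkbp1a, whose product binds type I receptors, had 7.95, 7.97, 7.94 and 7.82. All 3 genes lay close together between mice. The target gene Ccn2 was under the limit in every mouse but spread widely, at 4.31 ± 0.48 (SD, n = 4), and was named after its values were seen.

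Of 8 Hedgehog genes, 1 (12.5%) was above the range, against 29.0% of all genes. Dhh, the ligand known from Sertoli and Schwann cells, had 6.36, 6.29, 6.24 and 6.41 on one of 3 probe sets, close above the limit in each mouse. That probe set is marked by Affymetrix as reading a family of similar sequences. The other 2 averaged 5.17 ± 0.15 and 4.18 ± 0.17 (SD, n = 4 each), under the limit. Of the nerve and Schwann cell markers, Sox10 and Ncam1 were above the range and the other 5 were not.

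Shh, the epithelial ligand of urogenital sinus budding, averaged 5.22 ± 0.12 and Ihh 5.18 ± 0.17. The receptor gene Ptch1, itself a target of the pathway, had 5.40, 5.35, 5.40 and 5.35 on its brighter probe set, and the transducer gene Smo averaged 3.97 ± 0.06. The factors Gli1 (4.68 ± 0.12), Gli2 (3.76 ± 0.11) and Gli3 (3.48 ± 0.03) were also under the limit (SD, n = 4 each). Of 9 further components 3 (33.3%) were above it. These were Gas1, a Hedgehog co-receptor gene, at 7.59, 7.55, 7.45 and 7.39, and the kinase genes Csnk1a1, at 7.89, 8.20, 7.73 and 7.83, and Prkaca, at 6.67, 6.88, 6.62 and 6.85. Csnk1a1 and Prkaca serve many pathways, Csnk1a1 being counted among the Wnt components too, and both were highest in mouse 2.

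On the brightest or only probe set of each gene, all 4 Notch receptors were near or above the limit. The dimmer probe sets of Notch1, Notch2 and Notch4 were far under it. Notch2 had 6.95, 6.89, 6.92 and 6.92 in mice 1 to 4 on one probe set, so that the mice lay within 0.06 log2 units. Its SD of 0.03 was at percentile 1.27 of all probe sets. The other Notch2 probe set averaged 3.48 ± 0.08 (SD, n = 4). Notch4, an endothelial receptor, had 8.09, 7.84, 7.85 and 7.88 on a probe set marked as reading a family of similar sequences, and 2.96, 3.01, 2.94 and 3.097 on the other. Only the first was above the limit, with mouse 1 highest.

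Notch1 had 6.07, 6.60, 6.30 and 6.51 on its brighter probe set and failed the limit in mouse 1 alone. This was the fifth largest SD among the members, at 0.24. The other Notch1 probe set averaged 4.65 ± 0.12 (SD, n = 4). Notch3, a receptor of vascular smooth muscle, had 6.05, 5.97, 5.99 and 6.06, just under the limit in each mouse. The measured ligand genes were under it. Jag2 averaged 5.42 ± 0.11 (SD, n = 4), and Dll1 had 5.28, 5.23, 5.19 and 5.28 on one probe set and 2.96, 2.59, 2.81 and 2.80 on the other.

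Of the Notch target factors, Hes1 alone was above the range. This repressor, which is also induced by other signals, had 7.04, 6.87, 7.11 and 6.96, lowest in mouse 2. Hey1 averaged 5.35 ± 0.19, Hes3 5.79 ± 0.11, Hes6 4.96 ± 0.20, Hes5 4.63 ± 0.11 at its brighter probe set and Hes2 3.48 ± 0.16 (SD, n = 4 each), all under the limit. Jagn1, which shares the start of its name with the Jagged ligands but encodes an endoplasmic reticulum protein needed by neutrophils, had 6.66, 6.61, 6.88 and 6.75. Its values were above the limit in each mouse.

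Of 18 further Notch components, 5 (27.8%) were above the range. Kat2b, an acetyltransferase coactivator gene, had 7.24, 7.65, 7.08 and 7.14, the ubiquitin ligase gene Itch had 7.16, 7.12, 7.22 and 7.20, and the protease gene Furin, also counted in the TGF-beta branch, had 7.26, 7.13, 7.004 and 7.09. Mouse 2 was highest for Kat2b and lowest for Itch. Rbpj, the DNA-binding partner of Notch, had 4.36 ± 0.04 and was under the limit, as were Adam10 (5.16 ± 0.17) and Adam17 (4.33 ± 0.05), which cut the receptor (SD, n = 4 each).

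The remaining genes that entered by name alone were Bmp1, Bmp2k and Fgfr1op2. Bmp1, the procollagen protease gene, averaged 5.45 ± 0.18, the kinase gene Bmp2k 2.42 ± 0.10 and Fgfr1op2 4.99 ± 0.12 (SD, n = 4 each). None was above the range.

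For many of these genes the result depended on which probe set was read. Of 23 member genes with more than 1 probe set, 11 had probe sets whose 4-mouse means differed by more than 2 log2 units, and of the 9 that were above the range on all 4 arrays, each also had a probe set that was not above it on all 4. The other 8 genes above the range had a single probe set. The widest differences were in Notch4 (7.91 and 3.001), Fzd4 (7.20, 3.26 and 2.47) and Fgfr2 (6.90, 5.57 and 2.25). Dll1 (5.25 and 2.79) and Fgfr3 (5.26 and 2.06) differed in the same way with both probe sets under the limit. When the probe sets of each gene were averaged, 9 members were above the range, as were 22.6% of all genes, and Acvrl1, Dhh, Fgfr2, Fzd4, Lrp6, Notch2, Notch4 and Tgfb3 were lost.

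**Figure D3:**
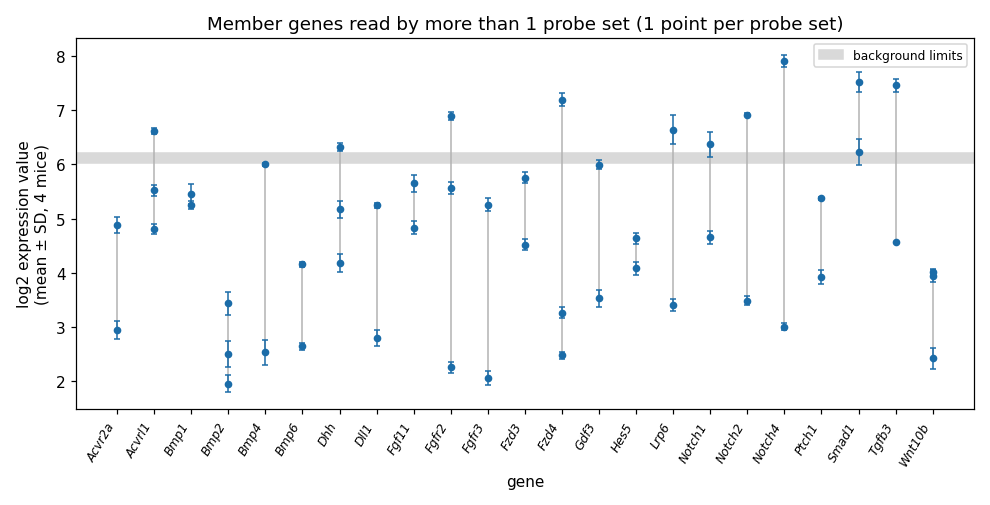
Mean log2 expression value of each probe set (points, with SD over 4 mice as bars) for the 23 member genes read by more than 1 probe set, with the background limits as a grey band. Points of one gene lie far apart in many cases, as for Notch4 at 7.91 and 3.001 and Fzd4 at 7.20, 3.26 and 2.47, whereas both Smad1 means, 7.52 and 6.23, lie above the band.

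No member was called variable between the mice. In limma's variance model, which sets each probe set's variance against a prior fitted over all probe sets, 0 of 145 member probe sets passed an adjusted p of 0.05, against 0.282% of all probe sets (35 of 12422). At an unadjusted p under 0.05 stood 4 member probe sets (2.76%), against 5.44% of all. These were one probe set each of Bmp2 (adjusted p = 0.714), Bmp4 (0.793), Lrp6 (0.857) and Wnt10b (0.906, limma). The first 2 and Wnt10b lay far under the limit, at means of 2.49, 2.52 and 2.41. Wnt10b had 2.69, 2.31, 2.25 and 2.41 in mice 1 to 4. Differences between mice in genes that did not pass are not excluded by this. In the 6 component lists, the same model called 0 probe sets, and 0 to 3 in each list had an unadjusted p under 0.05.

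The median SD was 0.12 for member probe sets and 0.11 for all, and the largest range between mice was 0.58 log2 units among members, whereas 0.757% of all probe sets ranged over more than 1 log2 unit.

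**Figure D4:**
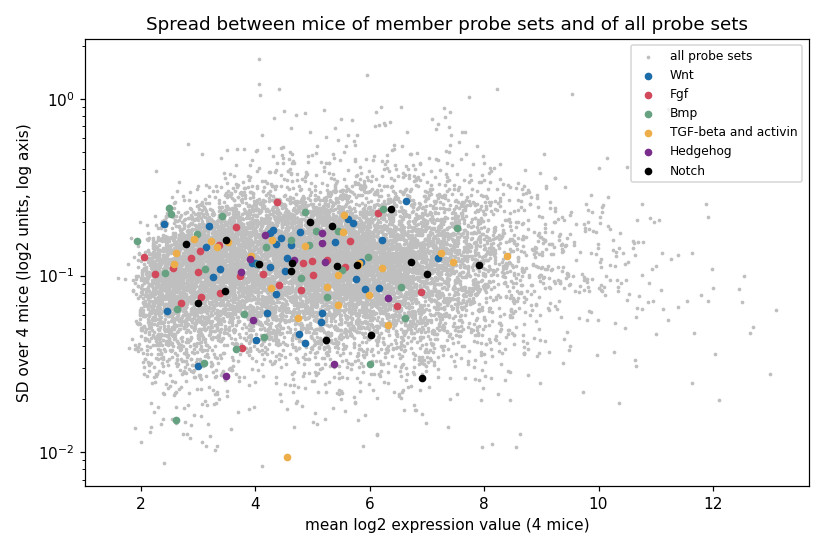
SD over the 4 mice (log axis) against mean log2 expression value for all 12422 probe sets (grey) and the 145 member probe sets (coloured by family). Member probe sets lie within the grey cloud, with the largest SD of 0.27 for Lrp6 and the smallest of 0.0094 for Tgfb3.

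The mice did not differ evenly in order. Member probe sets were lowest in mouse 2 in 69 of 145 cases (47.6%), against 36.7% of all probe sets. By family these were 19 of 36 for Wnt, 13 of 26 for Fgf, 12 of 25 for TGF-beta and activin, 6 of 11 for Hedgehog and 10 of 18 for Notch, but 9 of 29 for Bmp. Of the 29 Bmp probe sets, 11 (37.9%) were highest in mouse 2, against 21.6% of all probe sets. Among probe sets above the median signal, 30 of 58 members (51.7%) were lowest in mouse 2, against 33.6% of all. After quantile normalization of the arrays the count was 60 (41.4%), against 31.2% of all probe sets, and after a shift to one median 57 (39.3%), against 29.8%. The array of mouse 2 had the lowest median, at 4.95 against 4.96 to 4.98, and the lowest background limit. For the beta-actin controls it had the smallest excess of the 3′ over the 5′ probe set, at 0.82 against 0.98 to 1.08. The Gapdh controls did not set mouse 2 apart, at -0.116, -0.147, -0.150 and -0.134 in mice 1 to 4. Of the markers above the range, those of B and plasma cells (2 genes) deviated most in mouse 2, by 0.78. Luminal epithelial markers deviated by 0.12 there, secretion genes by 0.10, smooth muscle by -0.17, prostate by -0.14 and fibroblast by -0.10. Basal epithelial (1 gene), macrophage, nerve and endothelial markers had -0.07, -0.02, -0.02 and -0.003. The 12 other-organ genes above the limit had -0.11. The part of these in the order of the members was not tested, and no test of the order itself was made.

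The deviations of the genes above the range were averaged within families. Deviations were taken from each gene's mean over the mice. In mice 1 to 4 the average was 0.045, -0.086, 0.051 and -0.010 log2 units for the 4 Notch genes, Jagn1 among them, lowest in mouse 2. It was 0.032, 0.087, -0.029 and -0.090 for the 3 Bmp genes, highest in mouse 2. For the 5 TGF-beta and activin genes, Tgfb1i1 among them, it was -0.008, 0.004, -0.022 and 0.027. The value of mouse 2 changed sign with the scaling, to -0.022 after quantile normalization. Jagn1 and Tgfb1i1 entered these families by name alone and partly set both averages. Jagn1 deviated by -0.061, -0.119, 0.156 and 0.024 in mice 1 to 4, and Tgfb1i1 by 0.173, -0.140, -0.023 and -0.010. Wnt, Fgf and Hedgehog had fewer than 3 genes above the range and were not summarised. Mouse 1 was the highest for 5 of the 17 genes (29.4%), namely Lrp6, Notch4, Tgfb1i1, Bmp7 and Notch2. Among all genes above the range it was the highest for 23.1%, and the shares were not tested. Mouse 1 was also the mouse with high Pbsn and the highest smooth muscle markers, whose part in these values was not tested. With all member genes of a family the mean of mouse 2 was lowest in each of the 6, at -0.032 for Notch to -0.084 for Hedgehog.

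**Figure D5:**
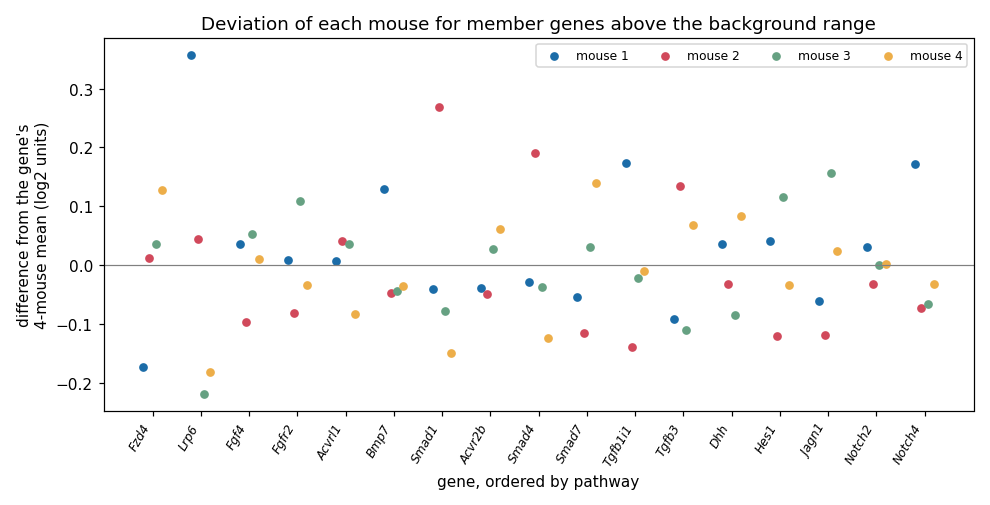
Difference of each mouse (coloured points) from the gene's mean over the mice, in log2 units, for the 17 member genes above the background range. Mouse 2 lies highest for Smad1, Smad4, Tgfb3 and Acvrl1, and mouse 1 for Lrp6, Notch4, Tgfb1i1, Bmp7 and Notch2. Mouse 2 lies lowest for 10 of the 17 genes (58.8%), against 746 of all 2392 genes above the range (31.2%). After a shift of the arrays to one median, mouse 2 was lowest for 7 of the 17 (41.2%), against 599 of the 2392. These shares were not tested.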

How the data were processed

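Seminal vesicle RNA of 4 mice was hybridised to 1 Affymetrix array each. The authors deposited one log2 value per probe set and array, computed with RMA per the submitters' processing notes. Which RMA version was used, and which arrays were normalized in one run, is not given in the sources used here. The range of the values, 1.47 to 13.2, was taken to mean a log2 scale. Through RMA, differences between dim probe sets shrink and a shift common to an array is lost.

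Of 12488 probe sets, 66 controls were left out. Names came from the platform annotation, which gave 1 gene for 10833 probe sets, several for 396 and none for 1193. The member pattern also met 1 probe set with several genes, which was left out. All 116 member genes matched RefSeq (GRCm38.p6) by gene ID. The members, component lists, marker lists and rule for named genes were chosen with earlier results of these data known. The rule gave 4 array values for members above the background range on any array, the 10 of largest SD and those whose probe sets differ by over 2 log2 units, with other members by mean and SD. For components it named those above the range with the 3 highest means, and other components were chosen after their values were seen. A gene was represented by its brightest probe set. Letters in probe set names (f, s, r, i and g) mark designs that Affymetrix could not make unique or by its full rules. Members above the range through such a probe set were Fzd4 (s), Acvrl1 (r), Smad1 (g), Dhh (f) and Notch4 (f). Among the components named, the same held for Tcf7l2 (f) and Etv4 (r).

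The variance test divided each probe set's variance (3 residual degrees of freedom) by limma's prior variance, fitted robustly with signal as trend (8.06 degrees of freedom), with Benjamini-Hochberg adjustment over 12422 probe sets. It was run on data simulated from its own fitted prior with normal noise, which cannot show whether those assumptions hold for these arrays. The number of arrays limits the precision. Mouse numbers follow the series and are names only. Alternatives covered array scaling, each mouse left out, prior fits, filters on dim probe sets, background limits and ways to combine probe sets and genes. Work used R 4.3.3, limma 3.58.1, Python 3.11.15 and matplotlib 3.10.9.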

Additional observations from a re-analysis of the deposited data

Results flagged for a closer look

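In 4 of 49 groups of 4 values examined, 1 mouse stood apart from the other 3 by a gap that made up a larger share of the range of the 4 values than Dixon's 95% critical value. Chance alone gives about 1 in 20 such groups. Bmp7 was high in mouse 1 (gap 0.929 of the range), at 6.68 against 6.51, 6.51 and 6.52. The dimmer Smad1 probe set was high in mouse 2 (gap 0.888), at 6.59 against 6.12, 6.14 and 6.08. The brighter Notch4 probe set was high in mouse 1 (gap 0.835), at 8.09 against 7.84, 7.85 and 7.88. The dimmest Fzd4 probe set, far under the background limit, was high in mouse 4 (gap 0.907), at 2.56 against 2.43, 2.43 and 2.44.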

How the results depend on the processing

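The count of 17 member genes above the background range moved by over 1.5 times with the limit, to 50 with the 75th percentile as limit, 49 with each array's median and 9 with the 95th percentile, and to 9 when the probe sets of each gene were averaged. In the same order, 54.9%, 55.4%, 18.3% and 22.6% of all genes were above it. The member count was 20 (17.2%) when 3 of 4 arrays sufficed (Lrp5, Notch1 and Wnt1 added), against 31.4% of all genes. With a mouse left out it was 17 to 19 (14.7% to 16.4%), against 29.2% to 30.5% of all genes. Under both rescalings it was 17, against 29% of all genes. The count of 0 members called variable by limma held under the 11 alternatives, with 0 to 8 members at an unadjusted p under 0.05 and the lowest adjusted p between 0.503 and 0.915. The 8 came without mouse 4, as 8 of 145 member probe sets against 691 of all 12422. Member probe sets lowest in mouse 2, 69 as deposited, numbered 60 after quantile normalization and 57 after a shift of the arrays to one median (both chosen after seeing the data). Mean deviations of families were small and depended on the genes taken: with all member genes, Bmp had -0.042 in mouse 2 and 0 in mouse 4, and TGF-beta and activin had 0.026, -0.064 and -0.001 in mice 1 to 3. With the median in place of the mean, the last had -0.039, -0.049 and 0.061 in mice 1, 2 and 4, and in mouse 2 it had -0.022 after quantile normalization and 0.025 after the shift. The causes were not tested. No paired analysis was possible because the labels give 1 group and no replicate numbers.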
